A study of Mus musculus with 9 samples.

Results

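The cells described here are cells of the dentate gyrus (DG) that held RNA of Eomes and little RNA of Tubb3, and they are called Eomes+ Tubb3-low cells. They were chosen from the raw counts of unique molecular identifiers (UMIs) in the 3 DG libraries. A barcode needed at least 1500 UMIs, at most 10% of them from mitochondrial (mt-) genes, at least 1 UMI of Eomes, at most 2 UMIs of Tubb3 and no UMI of Pdgfra or Gad1. Of the 2027 DG cells within the limits on depth and mt- genes, 80 met this rule, among 5669 such cells and 7402 barcodes in all 9 libraries. The adult DG (3 months) gave 69 of them, the middle-aged DG (14 months) gave 11 and the aged DG (24 months) gave 0. Eomes, Tubb3, Pdgfra and Gad1 chose the cells, so their values describe the choice and are not a result.

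The mice were heterozygous Dcx-GFP animals, in which the Dcx promoter drives GFP, and all groups carry this transgene. GFP+ cells were sorted from the subventricular zone (SVZ), the olfactory bulb (OB) and the DG at each of the 3 ages, with no treatment. The tissue of 4 to 5 mice of an age was pooled before the sort and gave 1 droplet-based 3′ library per region, so cells could not be assigned to mice, and no test between ages or regions was run. The adult, middle-aged and aged DG libraries held 3869007, 5132146 and 1544351 UMIs in 890, 1198 and 349 barcodes, of which 702, 1035 and 290 passed the limits. The adult SVZ library, used for 1 comparison, held 4487843 UMIs in 899 barcodes.

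In the DG, radial glia-like neural stem cells (NSCs) give rise to intermediate progenitors that divide a few times before they become neuroblasts and then granule neurons. The T-box factor Eomes (Tbr2) marks these intermediate progenitors in the glutamatergic lineages of the forebrain, between the proneural factor Neurog2 on the side of the stem cell and Neurod1 and Tbr1 on the side of the neuron. Tubb3, a neuronal tubulin, marks the later neuroblasts, and Mki67 marks dividing cells.

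Eomes lies at chr9:118478212-118486132 on the plus strand of GRCm38, and Tubb3 at chr8:123411424-123422015 on the plus strand. Among the 69 adult cells, 16 held 1 UMI of Eomes, 19 held 2 and 34 held 3 or more, up to 8. Tubb3 was at 0 in 45 cells, at 1 in 15 and at 2 in 9. Just outside the limit, 7 adult DG cells that met the rest of the rule had 3 UMIs of Tubb3 and 6 had 4, and 82 had 3 or more in all. Pdgfra or Gad1 left out 2 further cells, and 1 further cell had between 1000 and 1500 UMIs. The adult cells had a median of 8239 UMIs (2043 to 16619), 3192 detected genes and 2.81% mt- UMIs. Mki67, which the rule did not use, was found in 33 of them.

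Eomes was close to 0 in cells with a UMI of Pdgfra, the marker of oligodendrocyte progenitors (OPCs), which here stand for cells that should lack the gene. It was found in 1 of 46 such adult cells, whose median depth was 4604.5 UMIs. The adult Eomes+ Tubb3-low cells held 0.487% of their UMIs in radial stem markers and 0.164% in granule neuroblast markers, lists of their own lineage. Markers of other cell types took at most 0.0450% of their UMIs in any list. The 7 OPC markers other than Pdgfra took 0.00313% of their UMIs, with Olig1 and Vcan as the most abundant and Gpr17 at 0. The 6 oligodendrocyte markers took 0.00643%, with Mag at 0, and the 9 microglia markers took 0.00278%, with Cx3cr1, Aif1, Csf1r, C1qa and Tmem119 at 0. The 7 markers of inhibitory neurons other than Gad1 took 0.00174%, led by Dlx2, with Gad2 and Slc32a1 at 0. Of the 7 markers of mature excitatory neurons, Slc17a7, Nrgn and Syt1 were at 0 and Rbfox3 led, with 0.0142% in all. The 8 astrocyte markers took 0.0450%, led by Slc1a2, which was found in 57 of the 69 cells, with Agt at 0, and 0.0316% without the 2 cells described next. The 6 markers of Cajal-Retzius cells held 1 UMI, of Lhx1, in all cells together, with Reln at 0. Fibroblast and blood markers held none. Pericyte and ependymal markers took 0.000869% and 0.000174%, led by Pdgfrb and Rarres2, and endothelial markers 0.00209%, all from the transporter Slco1c1, with Cldn5, Pecam1, Flt1 and Kdr at 0. No Eomes+ Tubb3-low cell was called a doublet, among 7 called in the adult and 22 in the middle-aged DG library. The barcode of 2 of the 80 cells also occurred in another library, among 33 shared barcodes over the 36 pairs of libraries.

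A pair of the 69 adult cells stood apart. They held 306 of 4941 and 136 of 3870 UMIs of Apoe, the main apolipoprotein of astrocytes, or 61931 and 35142 UMIs per 1000000 UMIs of the cell (CPM), while the next cell held 7802 CPM. They also held 68 and 25 UMIs of Clu, 30 and 14 of Aldoc, 35 and 11 of the glutamate transporter Slc1a2, 8 and 2 of the water channel Aqp4 and 7 and 2 of the connexin Gjb6. Each had 1 UMI of Eomes, 1 UMI of the cyclin Ccnd2 and none of Sox11, Igfbpl1, Neurog2 or Mki67. The 2 cells were kept, since the rule keeps them, and the counts of stem cell and astrocyte markers are given with and without them, as are the ratios of several genes.

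The Eomes+ Tubb3-low cells were 9.83% of the adult DG cells within the limits (95% exact binomial interval 7.73 to 12.3), 1.06% of the middle-aged (0.532 to 1.89) and 0% of the aged, where the upper end of the interval is 1.26% and 3 cells would be 1.03%. The intervals cover counting error only. The adult share lay above the middle-aged and aged shares beyond this error, while the middle-aged and aged intervals overlapped. Other classes of the same libraries differed between ages as well. The 3 libraries held 46, 648 and 205 cells with Pdgfra from the youngest to the oldest age, or 6.55%, 62.6% and 70.7% of the cells within the limits, so a lower share of Eomes+ Tubb3-low cells and a higher share of Pdgfra cells cannot be told apart in these shares. Set against the Pdgfra cells, there were 150, 1.70 and 0 Eomes+ Tubb3-low cells per 100, in the same order. Cells with Hopx, chosen as described next, numbered 68, 31 and 7, and Tubb3-high cells 93, 19 and 3.

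**Figure D1:**
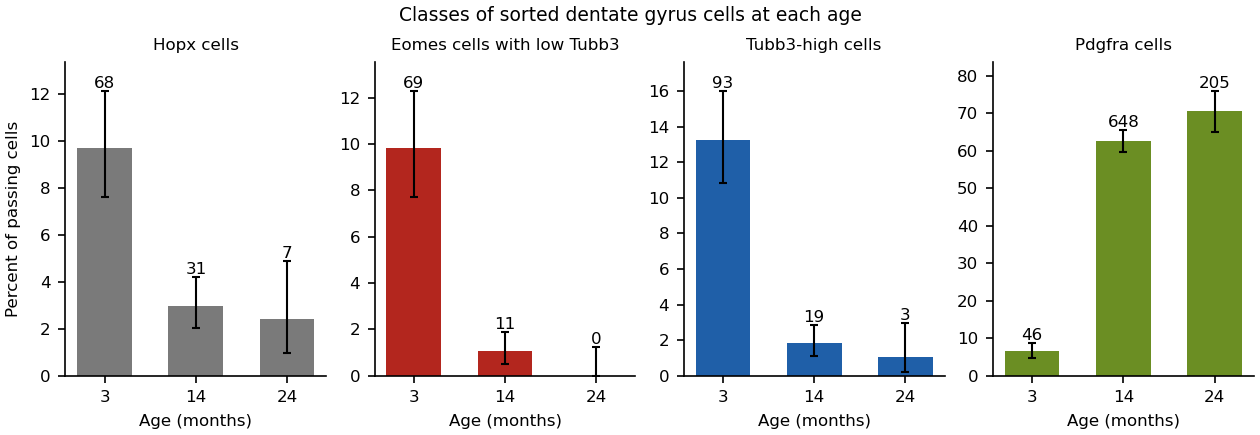
Percent of DG cells within the limits on depth and mt- genes (y axis) that belong to 4 classes at 3, 14 and 24 months (x axis), with 1 library per age. Bars are shares, lines are 95% exact binomial intervals for counting error, numbers are cells, and each panel has its own y axis. The Eomes+ Tubb3-low cells number 69, 11 and 0, while the Pdgfra cells number 46, 648 and 205.

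To place the adult cells in the lineage, the UMIs of all 69 cells were summed and set against 2 other classes of the same library. The first are 68 Hopx cells, with at least 2 UMIs of Hopx, a marker of the quiescent radial stem cell, none of Eomes or of the astrocyte gene Gjb6, and at most 2 of Tubb3. The second are 93 Tubb3-high cells, with at least 3 UMIs of Tubb3 and 1 of Dcx, of which 62 held Eomes. Neither class held Pdgfra or Gad1. A level is given as the UMIs of a gene per 1000000 UMIs of the class (CPM), and a difference is the log2 ratio of such sums with a pseudocount of 0.5, taken where a gene had 50 or more UMIs in the 2 sums. Ratios carry a 95% exact conditional binomial interval for counting error. All classes were chosen on counts of these same cells, so each direction is partly set by the choice, and a gene past 2-fold is named without a test. A gene near 0 in 1 class reaches the minimum through the other, so counts over measured genes are descriptions. The median depth was 4307.5 UMIs in Hopx cells and 5906 in Tubb3-high cells, below that of the Eomes+ Tubb3-low cells. Ribosomal protein genes took 14.3% of UMIs in the Eomes+ Tubb3-low, 5.83% in the Hopx and 13.8% in the Tubb3-high cells.

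Among the fate factors, Neurog2 was higher than in both other classes and Neurod1 was below the Tubb3-high cells. Of the list of basic helix-loop-helix (bHLH) factors and their inhibitors, 15 were measured against Tubb3-high cells, where 6 were at least 2-fold higher and 5 at least 2-fold lower, with a median log2 ratio of 0.04. Without the 2 cells rich in Apoe, 14 were measured, 5 higher and 5 lower, and the median was −0.17. Over all 3963 genes measured, 9.49% were at least 2-fold higher and 6.61% at least 2-fold lower, with a median of 0.03. Against Hopx cells, 12 were measured, 4 higher and 4 lower, with a median of 0.02, or −0.0028 without the 2 cells at the same counts. There, 25.1% of the 3237 genes measured were at least 2-fold higher and 13.4% at least 2-fold lower. The median over all genes was 0.33 in that comparison, so ratios over Hopx cells are to be read against 0.33. Centred on it, 16.6% were at least 2-fold higher and 18.3% at least 2-fold lower. With ribosomal and mt- UMIs left out of the totals, 29.3% were higher and 11.5% lower. The members of the list thus went in both directions, and they are described by their place in the lineage.

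Neurog2, a proneural factor of glutamatergic progenitors, lies at chr3:127633135-127635631. It was found in 51 of the 69 cells, with 0 UMIs in the lowest, 2 in the median and 25 in the highest cell. Its level was 645 CPM, against 56.5 CPM in Hopx cells (9 of 68 cells) and 141 CPM in Tubb3-high cells (15 of 93), and it was at 0 in the 46 Pdgfra cells. With each cell thinned to 1500 UMIs, a depth that every cell reached, Neurog2 was found in 40.6%, 2.94% and 8.60% of the cells of the 3 classes. The log2 ratio of Neurog2 was 3.48 (2.83 to 4.28) over Hopx cells and 2.19 (1.84 to 2.57) over Tubb3-high cells. Neurog2 was thus higher than in both neighbouring classes.

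Hes6, which opposes Hes1 and favours differentiation, was at 535 CPM and in 62 cells, with a log2 ratio of 1.91 over Hopx and 1.61 over Tubb3-high cells. Insm1, a zinc finger factor of basal progenitors, was at 143 CPM, against 15.7 CPM in Hopx and 54.1 CPM in Tubb3-high cells. Hes6 and Insm1 were thus both at least 2-fold higher than in Tubb3-high cells.

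Neurod1, which drives granule neuron differentiation, stood at the other end. It was found in 19 of the 69 cells and in none of the 68 Hopx cells, but in 86 of 93 Tubb3-high cells, or in 8.70%, 0% and 69.9% after thinning. Its level of 86.9 CPM was at least 9.23-fold above the Hopx cells, at a floor of 3 counts over the class, and its log2 ratio over Tubb3-high cells was −3.26 (−3.72 to −2.85). The later factors Neurod2 and Neurod6 were at 3.48 and 8.69 CPM, against 133 and 153 CPM in Tubb3-high cells. Nhlh1 was at 3.48 CPM against 83.0 CPM, and its relative Nhlh2 had no UMI, so that it was at least 13.8-fold higher in Tubb3-high cells. Neurod4 differed less, at 38.2 CPM against 52.3 CPM, with an interval of its log2 ratio from −1.32 to 0.40. The Id proteins, which block bHLH dimers, split. Id4 was at 59.1 CPM against 1010 CPM in Hopx cells, and Id2 was at 174 CPM against 754 CPM in Tubb3-high cells. The neuronal factors of the NEUROD family were thus at least 2-fold lower than in Tubb3-high cells for Neurod1, Neurod2 and Neurod6, and not for Neurod4.

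Among factors of the dorsal telencephalon and hippocampus (pallial factors), 17 were measured against Tubb3-high cells, 2 of them higher and 5 lower (median −0.67). Against Hopx cells 14 were measured, 8 higher and 0 lower (median 1.42). The shares over all genes were 9.49% higher and 6.61% lower against Tubb3-high cells, and 25.1% and 13.4% against Hopx cells. The 2 factors higher than in Tubb3-high cells are thus near the share of all genes. This list shares Neurog2, Neurod1, Neurod2 and Neurod6 with the bHLH list. Prox1, the granule lineage factor, was found in 35 of the 69 cells at 116 CPM, against 28.2 CPM in Hopx and 216 CPM in Tubb3-high cells. Tbr1, which follows Eomes in glutamatergic lineages, was in 13 cells at 41.7 CPM, against 0 and 148 CPM. Emx1 was at 221 CPM, against 81.6 CPM in Hopx and 222 CPM in Tubb3-high cells. Nfix, a nuclear factor I family member, was at 1253 CPM, against 264 and 2325 CPM. Prox1, Tbr1 and Nfix thus lay between the other 2 classes in level, and Emx1 was level with the Tubb3-high cells.

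**Figure D2:**
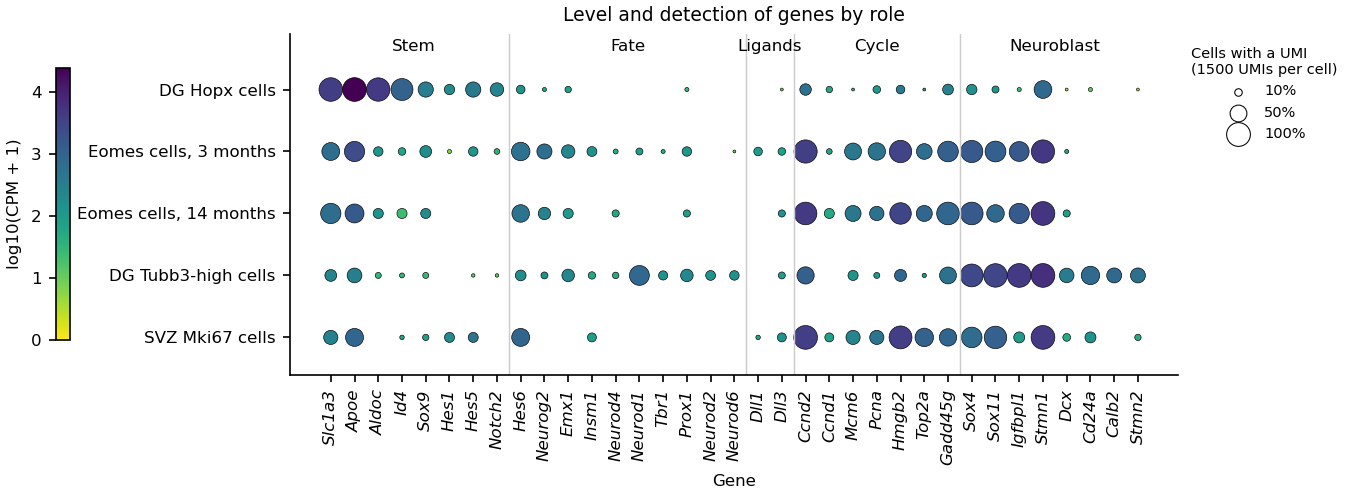
Genes by role (x axis) in 5 groups of cells (y axis, the SVZ cells and the Tubb3-high and Hopx cells at 3 months). Colour is log10(CPM + 1) of the summed UMIs and the area of a dot is the share of cells with a UMI after each cell was thinned to 1500 UMIs, with no dot at 0%. Apoe and Id4 are highest in the Hopx cells, Neurog2 in the Eomes+ cells and Neurod1 in the Tubb3-high cells.

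Factors were also found together in single cells. Neurog2 was detected in 16 of the 19 cells with Neurod1. Hopx was detected in 13 cells, of which 0 held Neurod1. Of the 13 cells with Hopx, 0 held Mki67, whereas 16 of the 19 with Neurod1, 10 of the 13 with Tbr1 and 20 of the 35 with Prox1 did. At 14 months, Mki67 was found in 3 of the 5 cells with Hopx. Cells with Mki67 were deeper, with a median of 9729 UMIs against 6913.5, and deeper cells show more genes, so these counts are not read as an order of the genes.

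Notch signalling keeps stem cells undivided, and differentiating progenitors present its ligands to their neighbours. Of the 20 genes of this pathway, 7 were measured against Tubb3-high cells, 4 higher and 0 lower (median 1.68). Against Hopx cells 8 were measured, 2 higher and 4 lower (median −1.05). Over all genes measured, 9.49% were higher and 6.61% lower than in Tubb3-high cells, and 25.1% and 13.4% against Hopx cells. The 2 of 8 genes higher than in Hopx cells thus lie near the share of all genes. The ligand Dll1 was found in 31 of the 69 cells at 99.0 CPM, against 25.1 CPM in Hopx and 7.21 CPM in Tubb3-high cells, a log2 ratio of 1.91 (0.91 to 3.26) and 3.62 (2.34 to 5.70). Dll3 was at 71.2 CPM, against 9.41 and 92.0 CPM. The glycosyltransferases that tune the receptors differed, with Mfng at 101 CPM against 6.27 CPM in Hopx cells and Lfng at 22.6 against 217 CPM. The receptor Notch2 was at 34.8 CPM against 245 CPM in Hopx cells, while Notch1 was at 71.2 against 69.0 CPM. The target Hes1 was found in 3 cells at 5.21 CPM, against 191 CPM in Hopx cells, and the target Hes5 was at 123 CPM, against 411 CPM in Hopx and 12.6 CPM in Tubb3-high cells. The ligand Dll1 and Mfng were thus higher and the targets Hes1 and Hes5, the receptor Notch2 and Lfng lower than in Hopx cells. Without the 2 cells rich in Apoe, the pathway counts were the same.

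Genes of the cell cycle were higher in the Eomes+ Tubb3-low cells than in both other classes. Of 43 S phase genes, 33 were measured against Tubb3-high cells, 29 of them at least 2-fold higher and 0 lower (median 2.13), and 31 against Hopx cells, 29 higher and 0 lower (median 2.54). Of 54 G2/M genes, 47 were measured against Tubb3-high cells, 41 higher and 0 lower (median 1.62), and 45 against Hopx cells, 43 higher and 0 lower (median 2.74). S phase genes took 0.682% of UMIs, against 0.123% in Hopx and 0.179% in Tubb3-high cells, with Pcna as the most abundant. G2/M genes took 1.57%, against 0.254% and 0.586%, with Hmgb2 as the most abundant.

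Ccnd2, the D-type cyclin of neuronal progenitors, was found in all 69 cells, with 1, 31 and 85 UMIs in the lowest, median and highest cell. Its level was 3750 CPM, against 593 CPM in Hopx, 1199 CPM in Tubb3-high and 125 CPM in Pdgfra cells. Its relative Ccnd1 was at 64.3 CPM and did not stand out, at 56.5 CPM in Hopx and 626 CPM in Pdgfra cells. Ccne2, a cyclin of S phase entry, was in 22 cells at 101 CPM and at 0 in Hopx cells, a difference of at least 10.7-fold. The replication genes Mcm6 and Pcna were at 443 and 520 CPM, against 119 and 106 CPM in Tubb3-high cells. Top2a, the topoisomerase of mitotic chromosomes, was in 42 cells at 657 CPM, against 107 CPM in Hopx and 110 CPM in Tubb3-high cells. Of the genes that slow the cycle, 8 were measured against Tubb3-high cells, 1 higher and 0 lower. Against Hopx cells 6 were measured, 4 higher and 0 lower. Beside them, 9.49% of all genes measured were higher than in Tubb3-high cells and 25.1% higher than in Hopx cells. Gadd45g, a growth arrest gene, was found in 67 cells at 1124 CPM, against 279 and 548 CPM, and Cdkn2a was in 4 cells at 6.95 CPM. Ccnd2 and Gadd45g were thus both higher than in the Hopx and Tubb3-high cells.

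Chromatin genes linked to proliferation followed, with 9 of 18 measured genes higher than in Tubb3-high cells and all 17 higher than in Hopx cells (medians 0.97 and 2.26). Hmgn2, which binds nucleosomes, was the most abundant of them at 5986 CPM, against 753 and 2301 CPM. The polycomb enzyme Ezh2 was at 393 CPM, against 65.9 CPM in Hopx and 162 CPM in Tubb3-high cells, and the histone H2afz was at 4203 CPM, against 715 and 1477 CPM.

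**Figure D3:**
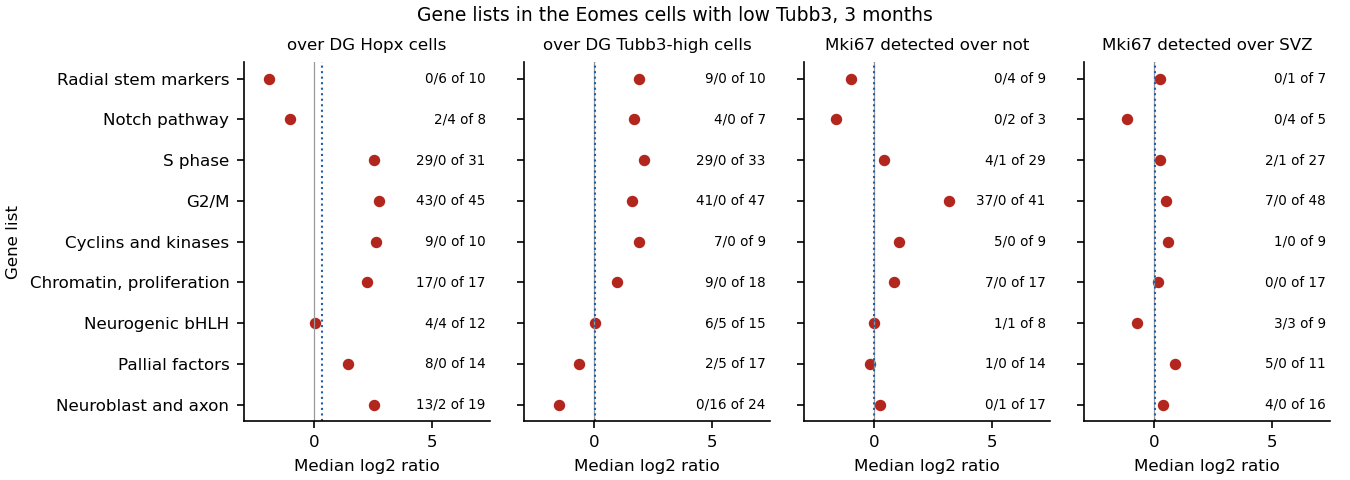
Median log2 ratio (x axis) of 9 gene lists (y axis) in 4 comparisons of the adult Eomes+ Tubb3-low cells. Red points are list medians, the dotted line is the median of all genes measured, and the numbers give genes at least 2-fold higher and lower of those measured. S phase and G2/M genes lie right of 0 against both other DG classes, with 29 of 31 and 43 of 45 genes higher than in Hopx cells.

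The promoters of 3 abundant G2/M genes and of Neurog2 are shown because G2/M promoters often carry CCAAT boxes and a cell cycle homology region (CHR). They were chosen for the most UMIs in the 69 cells among the G2/M and bHLH lists. All 4 genes were higher than in Hopx cells. Against Tubb3-high cells, Hmgb2, Top2a and Neurog2 were higher, while Hn1 was at 926 against 1194 CPM, a log2 ratio of −0.37 (−0.53 to −0.20). The bHLH gene Tcf4 had more UMIs than Neurog2, 1221 in the 69 cells. Its promoter was not used, since its chromosome was left out here and in the shares of promoters below. Hmgb2, Hn1 (a microtubule-associated gene, Jpt1 in RefSeq) and Top2a are G2/M genes with 1790, 533 and 378 UMIs in the 69 cells, and Neurog2 had 371. Each sequence is the 120 bases before the start of transcription, 5′ to 3′ on the strand of the gene, from RefSeq on GRCm38.p6. They lie at chr8:57511723-57511842 (plus), chr11:115514394-115514513 (minus), chr11:99024190-99024309 (minus) and chr3:127633016-127633135 (plus). Capitals mark the letters CCAAT and TTTGAA, the CHR core, on either strand, and no match of these letters overlapped another.
Hmgb2: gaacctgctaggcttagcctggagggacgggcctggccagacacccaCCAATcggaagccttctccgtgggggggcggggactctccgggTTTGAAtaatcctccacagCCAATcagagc
Hn1: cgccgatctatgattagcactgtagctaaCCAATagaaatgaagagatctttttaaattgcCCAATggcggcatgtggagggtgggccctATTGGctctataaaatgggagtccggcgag
Top2a: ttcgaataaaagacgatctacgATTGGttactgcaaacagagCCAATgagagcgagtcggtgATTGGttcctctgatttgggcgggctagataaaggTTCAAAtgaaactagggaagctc
Neurog2: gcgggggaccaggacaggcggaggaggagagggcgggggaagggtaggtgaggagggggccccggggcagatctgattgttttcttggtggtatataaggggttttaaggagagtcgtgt
Hmgb2 had 1 CHR and 2 CCAAT matches, Top2a 1 and 3, Hn1 0 and 3, and Neurog2 none of either. In the 250 bases before the start, the CHR letters were found in 40.4% of 52 promoters of 47 G2/M genes, against 16.0% of all 32851 promoters and 14.3% of 35 promoters of 31 S phase genes. CCAAT was found in 75.0%, 33.8% and 65.7%, and both in 34.6%, 5.55% and 8.57%. Lists outside the cell cycle also lay above all promoters for CCAAT, which was found in 55.6% of 27 neuroblast and axon, 52.6% of 19 bHLH and 7 of 14 radial stem promoters. CHR was found in 11.1%, 5.26% and 28.6% of them, above all promoters for the radial stem list alone. Both were found together in 11.1%, 0% and 7.14% of them. These are matches of letters and not measured sites.

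The S phase and G2/M genes varied widely between single cells. Without Mki67, S phase genes took a median of 0.723% of a cell's UMIs (0 to 1.87) and G2/M genes 0.785% (0.0517 to 4.59). The S phase share was above 1% in 23 of the 69 cells, the G2/M share in 28, and both in 8. Both were under 0.5% in 12 of 69 cells, against 65 of 68 Hopx and 84 of 93 Tubb3-high cells. The medians of the Hopx cells were 0.0547% and 0.0967%, and those of the Tubb3-high cells 0.119% and 0.244%. A few cells of the other classes reached the same range, with a G2/M share above 1% in 1 Hopx cell and 6 Tubb3-high cells.

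**Figure D4:**
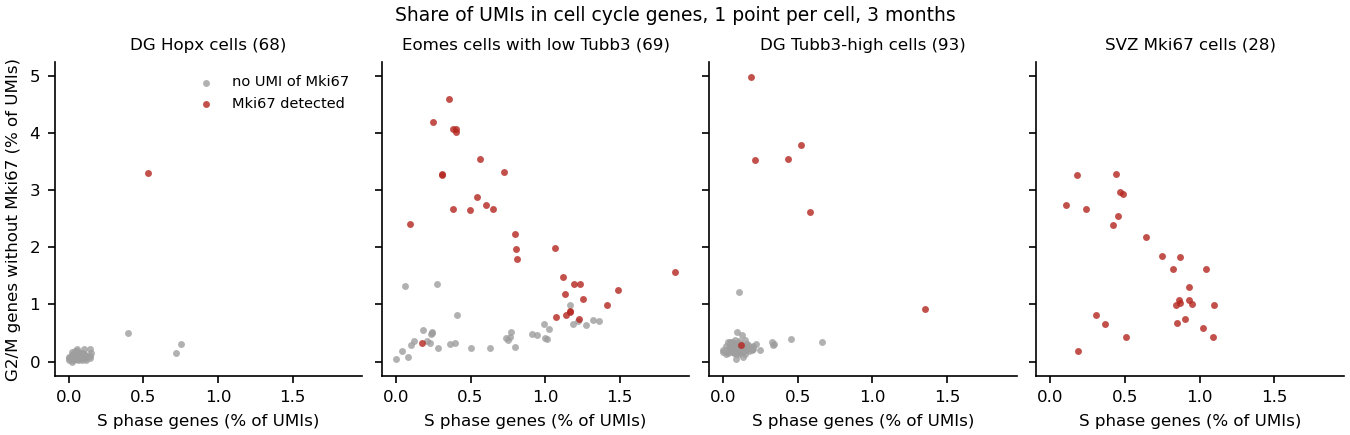
Percent of a cell's UMIs in 43 S phase genes (x axis) and in G2/M genes without Mki67 (y axis), 1 point per cell at 3 months, in red where Mki67 was detected. The 69 Eomes+ Tubb3-low cells spread along both axes, with 23 above 1% on the x axis and 28 above 1% on the y axis, while 65 of 68 Hopx and 84 of 93 Tubb3-high cells lie under 0.5% on both.

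Genes of the radial stem cell were low against Hopx cells and high against Tubb3-high cells. Leaving out Hopx, which chose the reference, 6 of 10 measured markers were at least 2-fold lower than in Hopx cells and 0 higher (median −1.94). Against Tubb3-high cells, 9 of 10 were higher and 0 lower (median 1.89). The markers took 0.483% of UMIs without Hopx, against 3.69% in Hopx cells, and Apoe was the most abundant. Without the 2 cells rich in Apoe the share was 0.397%. The counts were then 6 of 10 lower than in Hopx cells (median −1.95) and 7 of 8 higher than in Tubb3-high cells (median 2.07). The glutamate transporter Slc1a3 was in 66 cells at 690 CPM (655 without the 2 cells), against 4094 CPM in Hopx and 258 CPM in Tubb3-high cells. The fatty acid binding protein Fabp7 was at 400 CPM, against 1396 and 130 CPM. Sox9, a gliogenic factor, was in 44 cells at 177 CPM (178 without them), against 351 and 27.1 CPM, and Sox2, a stem cell factor, was at 313 CPM, against 301 and 171 CPM. Sox2 did not differ from the Hopx cells beyond counting error, with a log2 ratio of 0.05 (−0.31 to 0.43).

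Apoe was at 2384 CPM, against 24167 and 323 CPM, and at 1641 CPM without the 2 cells. The log2 ratio of Apoe over Tubb3-high cells was 2.88, and 2.34 without them. The glycolytic gene Aldoc had a ratio of −5.16 over Hopx cells, and −6.48 without them. The 4 measured astrocyte markers, all lower than in Hopx cells, had a median of −2.70, and −3.32 without the 2 cells. Against Tubb3-high cells 1 astrocyte marker was measured, Slc1a2, with a log2 ratio of 1.23. Without the 2 cells its ratio was 0.82, under 2-fold. Across astrocyte and stem cell genes the direction against Hopx cells was thus kept, and the size moved with these 2 cells.

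Among the genes that were lowest against Hopx cells, the matrix protein gene Sparc had 8 UMIs in the 69 cells and 371 in Hopx cells, a log2 ratio of −6.30 (−7.61 to −5.39). Entpd2, an ectonucleotidase of adult stem cells, had 3 UMIs, all in 1 cell, against 135, a ratio of −6.13 (−8.64 to −4.77). The lysosomal amidase Naaa, the receptor modulator Ramp1, the matricellular Cyr61, Scrg1 and the caveolin Cav2 had ratios between −5.29 and −4.88. Entpd2 and Ramp1 lay further below 0 without the cells rich in Apoe. The highest genes were Igfbpl1, which resembles insulin-like growth factor binding proteins and marks neuroblasts, at 5.98 (5.03 to 7.39) with 852 against 7 UMIs, and the replication histone Hist1h2ap at 5.69 (3.76 to 11.6) with 139 against 1 UMI. Cplx2, a complexin of the synapse, followed at 5.21 (3.28 to 11.1) with 100 against 1 UMI, and the histone H2afx at 4.56. The neuronal RNA-binding protein Elavl4, the nucleotide reductase subunit Rrm2, the actin-binding Tmsb10 and the mitotic gene Cenpf had ratios between 4.01 and 4.21.

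Genes of neuroblasts and axons were mostly lower than in Tubb3-high cells and mostly higher than in Hopx cells. Leaving out Dcx, 16 of 24 measured genes of this list were at least 2-fold lower than in Tubb3-high cells and 0 higher (median −1.52), while 13 of 19 were higher and 2 lower than in Hopx cells (median 2.54). The list without Dcx took 1.64% of UMIs, against 4.06% in Tubb3-high cells. Sox11, a factor of immature neurons, was in 66 of the 69 cells (median 8 UMIs, highest 37) at 1119 CPM, against 119 CPM in Hopx and 2947 CPM in Tubb3-high cells. Sox4, its relative, was at 1491 CPM, against 144 and 2757 CPM. Igfbpl1 was in 58 cells at 1480 CPM, against 22.0 and 4539 CPM, and in 5 of 46 Pdgfra cells at 28.9 CPM. The microtubule regulator Stmn1 was in 67 cells at 4713 CPM, against 809 and 6054 CPM. Sox4, Sox11 and Igfbpl1 thus stood above the Hopx and below the Tubb3-high cells.

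Other genes of this stage were close to 0. Stmn2, a stathmin of growing axons, had 2 UMIs in the 69 cells and 335 in the Tubb3-high cells, a log2 ratio of −7.12 (−10.5 to −5.58). Stmn4, a relative, had 3 against 164 UMIs, a ratio of −5.61 (−8.12 to −4.25). Calb2, calretinin of immature granule neurons, was in 6 cells at 12.2 CPM, against 846 CPM (−6.02). The surface protein Cd24a had a ratio of −5.53, the vesicle protein Rab3a −3.59, the guidance ligand Sema3c −3.27 and the tubulin Tubb2a −3.26. Of 7 measured granule neuroblast markers, 6 were at least 2-fold lower and 0 higher (median −4.01). Genes such as Calb2 and Stmn2 reached the minimum through the Tubb3-high cells alone, so this count is largely set by the minimum and by the choice on Tubb3. Rbfox3, a neuronal splicing factor, was in 32 of the 69 cells at 101 CPM, against 3.14 CPM in Hopx and 245 CPM in Tubb3-high cells. Stmn1 (−0.36) and Elavl4 (−0.07) thus differed from the Tubb3-high cells by less than 2-fold, and Stmn2, Stmn4 and Calb2 had log2 ratios of −5.61 or lower.

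Among the genes that were highest against Tubb3-high cells, Phgdh, which starts serine synthesis, was in 50 of the 69 cells at 327 CPM, against 27.1 CPM, a log2 ratio of 3.55 (2.84 to 4.46). The milk fat globule protein Mfge8 had a ratio of 3.31, and 3.18 without the 2 cells rich in Apoe. Uhrf1, which carries DNA methylation through replication, was at 3.39, the kinetochore gene Spc24 at 3.09, the cohesin acetyltransferase Esco2 at 2.97, and the helicase subunit Mcm3 and the uracil glycosylase Ung both at 2.91.

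Further lists were mostly under the minimum of UMIs. Their counts stand beside 9.49% higher and 6.61% lower of all genes against Tubb3-high cells, and 25.1% and 13.4% against Hopx cells. Of 8 early response genes measured against Tubb3-high cells, 1 was lower and 0 higher (median −0.17), and of 7 against Hopx cells 3 were higher (median 0.88). Of 3 interferon response genes measured, 1 was higher than in Tubb3-high cells and 2 were lower than in Hopx cells. B2m, the light chain of MHC class I, was at 156 CPM, against 408 CPM in Hopx and 46.9 CPM in Tubb3-high cells. Of 13 genes of glutamate and GABA receptors and chloride transport, 1 was measured, and it was lower than in both classes. Of the mature excitatory markers, Rbfox3 and 1 other were measured against Tubb3-high cells and both were lower.

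The 33 adult cells with Mki67 were next set against the 36 without it. Of 2111 genes measured, 7.3% were at least 2-fold higher and 3.46% at least 2-fold lower, with a median of −0.02. Leaving out Mki67, 37 of 41 measured G2/M genes were higher and 0 lower (median 3.16). Of 29 S phase genes, 4 were higher and 1 lower (median 0.39). The cells were split on Mki67, which is itself on the G2/M list. The direction of the other G2/M genes is thus partly set by the split. Genes such as Ccnb1 and Prc1 also reached the minimum of UMIs through the cells with Mki67. The G2/M count and median are therefore a description. The cyclin Ccnb1 had 203 against 3 UMIs, a log2 ratio of 5.54 (4.19 to 8.05), and the spindle gene Prc1 181 against 3, a ratio of 5.38 (4.02 to 7.89). The spindle gene Nusap1 had 107 against 2 UMIs and a ratio of 5.11 (3.53 to 8.48). The cyclin Ccna2 followed at 4.85, Ube2c, Cdc20 and the histone Hist1h2ap at 4.59, and the importin Kpna2 at 4.31. Hmmr, Gas2l3 and Ndc80, genes of the spindle and kinetochore, had no UMI in cells without Mki67 and were at least 20.5-fold, 15.5-fold and 13.9-fold higher. Pcna was at 538 against 496 CPM and Mcm6 at 354 against 555 CPM, and Ccnd2 at 3723 against 3783 CPM. Pcna and Ccnd2 did not differ beyond counting error, so cells without a UMI of Mki67 also held S phase genes. Their median S phase share was 0.567%, against 0.801% in cells with Mki67, and it was above 1% in 9 of 36 and 14 of 33.

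Most fate factors were within 2-fold between cells with and without Mki67. Of 8 bHLH genes measured, 1 was higher and 1 lower (median −0.04), or 2 lower without the 2 cells rich in Apoe, and of 14 pallial factors 1 was higher and 0 lower (median −0.18). Neurod1 was higher, at 135 against 27.4 CPM (log2 ratio 2.22, 1.13 to 3.70), and Hes5 lower, at 25.0 against 246 CPM (−3.22, −4.57 to −2.23). The Notch ligand Dll1 was at 50.1 against 160 CPM (−1.65) and the antiproliferative gene Btg2 at 156 against 582 CPM (−1.89, −2.39 to −1.43). Neurog2 was at 551 against 762 CPM (−0.47) and Sox2 at 307 against 321 CPM (−0.07, −0.50 to 0.38). Hopx had 0 against 22 UMIs, at least 9.16-fold higher in cells without Mki67.

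Both cells rich in Apoe lacked Mki67 and weighed on this comparison. Clu, a secreted chaperone of astrocytes, had a log2 ratio of −3.23 with them, and without them it had fewer than 50 UMIs over both sums. Apoe moved from −2.01 to −1.27, the metallothioneins Mt3 from −2.21 to −1.25 and Mt1 from −1.73 to −1.11, and Slc1a2 from −1.59 to −0.99. Mfge8 stayed near −2, at −2.07 and −1.92, and Btg2 at −1.89 and −1.94. Of 9 radial stem markers 4 were lower with the 2 cells (median −0.99), and 4 of 8 without them (median −0.92).

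Dividing progenitors of the DG and of the SVZ of the same adult mice make different neurons, excitatory granule neurons and mostly inhibitory interneurons of the OB. To compare them, the 33 DG cells with Mki67 were set against 28 adult SVZ cells with Mki67, no Eomes, Pdgfra or Gad1 and at most 2 UMIs of Tubb3. Their median depths of 9729 and 9468 UMIs were close. Of 2105 genes measured, 5.08% were at least 2-fold higher and 3.23% at least 2-fold lower in the DG cells, with a median of 0.02. The DG cells were chosen with Eomes and the SVZ cells without it, which favours an excitatory profile in the DG cells alone. Gad1 was left out on both sides, which favours a less inhibitory profile in both. Region and library cannot be told apart here.

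Of 11 pallial factors measured, 9 had a ratio above 0, 5 were at least 2-fold higher in the DG cells and 0 lower (median 0.88). Neurog2 and Emx1, with no UMI in the SVZ cells, reached the minimum through the DG cells alone. Subpallial factors were lower, with all 6 measured at least 2-fold lower (median −4.52, and −4.45 with Meis2 at its bound). Most of these genes reached the minimum of 50 UMIs through the SVZ cells, where they are high. This count and median are thus partly fixed by the minimum and by the opposite limits on Eomes. Neurog2 had 176 UMIs in 27 of 33 DG cells and 0 in the SVZ cells, at least 48.2-fold higher at a floor of 3 counts over the class. Emx1, a homeobox factor of the dorsal telencephalon, was at 197 CPM against 0, at least 17.3-fold higher, and Neurod1 at 135 CPM against 0, at least 11.8-fold higher. Lhx2 had a log2 ratio of 1.80 (1.31 to 2.34), Emx2 of 1.70 (0.73 to 2.92) and Nfix of 1.11 (0.83 to 1.40). Pax6, which acts in both regions, was at 141 against 278 CPM (−0.97, −1.55 to −0.43).

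The subpallial factors carried the opposite sign. Dlx2, a homeobox factor of interneuron progenitors at chr2:71543408-71546754, had 6 UMIs in 1 DG cell and 160 in 21 of 28 SVZ cells, a ratio of −4.91 (−6.49 to −3.87). Dlx1 had 3 against 98 UMIs (−5.10, −7.61 to −3.72), and Gsx2 had 3 against 50 UMIs (−4.13, −6.67 to −2.71). Meis2 had no UMI in the DG cells and 67 in the SVZ cells, at least 27.2-fold higher there. The Notch target Hes5 was at 25.0 against 483 CPM (−4.19, −5.51 to −3.25), and 4 of 5 measured Notch genes were lower.

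**Figure D5:**
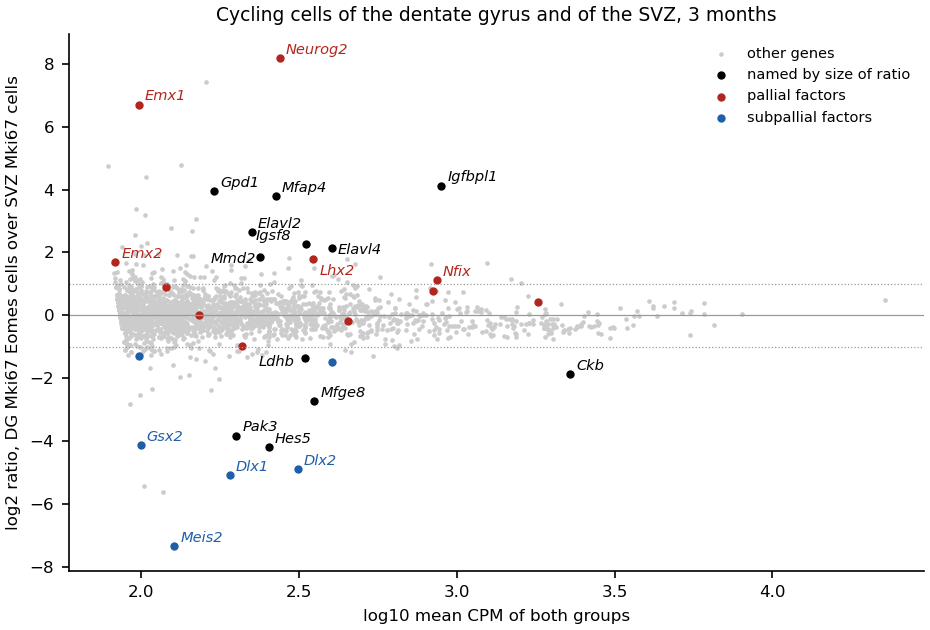
Log2 ratio of adult DG Eomes+ Tubb3-low cells with Mki67 over adult SVZ cells with Mki67 (y axis, pseudocount 0.5, dotted lines at 2-fold) against log10 mean CPM of both (x axis) for 2105 genes, 1 point per gene. Pallial factors are red, subpallial factors blue and further named genes black, and not every coloured point has a name. Neurog2 and Emx1 at the top and Meis2 at the bottom have no UMI in 1 of the groups, so their position depends on the pseudocount, while Ckb and Igfbpl1 have UMIs in both.

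Outside these lists, Igfbpl1 was at 1693 against 95.1 CPM (4.13, 3.58 to 4.79), the glycerol phosphate dehydrogenase Gpd1 had a ratio of 3.95, the matrix gene Mfap4 3.80, the RNA-binding Elavl2 2.63 and Elavl4 2.13, the membrane protein Igsf8 2.25, and Mmd2 1.85. Lower in the DG cells were the kinase Pak3 at −3.83, Mfge8 at −2.74, the creatine kinase Ckb at −1.87 with 979 against 3581 CPM, and the lactate dehydrogenase Ldhb at −1.36. G2/M genes were somewhat higher in the DG cells. Of 48 measured without Mki67, 44 had a ratio above 0, 7 were at least 2-fold higher and 0 lower (median 0.49), and they took 2.40% against 1.76% of UMIs, a log2 ratio of 0.44 (0.39 to 0.50). Of 27 S phase genes 2 were higher and 1 lower (median 0.22). Ccnd2 was at 3723 against 3821 CPM, a ratio of −0.04 (−0.16 to 0.09), and Top2a at 1104 against 1039 CPM, 0.09 (−0.14 to 0.32). Sox11 was at 1201 against 1092 CPM, 0.14 (−0.09 to 0.36).

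The 11 middle-aged cells are under the minimum of 20 set for ratios between ages, and their values stand beside those of the adult cells. Their median depth was 7314 UMIs (4928 to 13176), with 92229 UMIs in all, and 6 of them held Mki67. Neurog2 was in 8 of 11 cells (lowest 0, median 1, highest 13 UMIs) at 282 CPM, against 645 CPM in the adult cells. Hes6 was in 10 cells at 510 against 535 CPM, and Neurod1 in 2 at 54.2 against 86.9 CPM. Ccnd2 was in all 11 cells (lowest 14, median 41, highest 57 UMIs) at 4326 against 3750 CPM, Hmgb2 at 3025 against 3110 CPM, Pcna at 553 against 520 CPM and Top2a at 889 against 657 CPM. Igfbpl1 was at 1431 against 1480 CPM, Sox11 at 835 against 1119 CPM, Sox4 at 1475 against 1491 CPM, Stmn1 at 4998 against 4713 CPM and Apoe at 1442 against 2384 CPM, or 1641 CPM without the 2 adult cells rich in Apoe. The median S phase and G2/M shares per cell were 0.658% and 0.605%, against 0.723% and 0.785% in the adult. Neurog2 was at 0 in some cells at both ages, so an overlap of its per-cell ranges was certain. Its median per cell was 137 CPM, against 409 CPM in the adult cells. The per-cell range of Ccnd2 lay within that of the adult cells.

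The Hopx and Tubb3-high cells of the middle-aged DG, 31 and 19 cells, gave the same comparisons within that library, as a description that rests on 11 Eomes+ Tubb3-low cells. Of the 376 genes at least 2-fold higher than in Tubb3-high cells in the adult, 57 reached 50 UMIs there, and all 57 were higher, beside 58.3% of the 636 genes measured. Of the 262 lower genes 37 were measured and all were lower, beside 41.7%. Against Hopx cells, all 207 of the higher genes that were measured were higher and all 134 lower genes lower, beside 60.8% and 39.2% of 681 genes. The same rule chose the cells at both ages, so part of this is fixed by the choice. With so few cells, a gene reaches 50 UMIs mostly through the class where it is high. The counts are thus also partly fixed by the minimum, which most of the adult genes did not reach. In the aged DG, 0 cells met the rule, and the 2 cells that held Eomes had 3 or more UMIs of Tubb3.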

How the data were processed

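GFP+ cells of the SVZ, OB and DG were sequenced in 9 libraries, 1 per region and age. The deposited values are unnormalized UMI counts of each gene in each barcode, made by the authors with Cell Ranger 3.0.2 on mm10 per the submitters' processing notes. The files list 27998 genes. Their labels name 1 library per group, so there were no replicates.

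The cells, the comparison classes and the 28 gene lists were chosen with earlier results of these data known. UMIs were summed over the cells of a class with pandas 2.3.3 and numpy 2.4.6 under Python 3.11.15, intervals came from scipy 1.17.1, and matplotlib 3.10.9 drew the figures. Genes named are the 8 highest and 8 lowest per comparison with at least 100 UMIs over both sums, without genes of the rule, mt- genes, gene models and pseudogenes, together with genes of the lists. Some of them, and a planned split of the cells by detected factors, are not reported here. The genes compared between the 2 cells rich in Apoe and the others were chosen after their values were seen, as was the limit of 10000 CPM of Apoe. Scrublet, as scanpy 1.11.5 runs it, called doublets for an assumed rate of 0.05, and they were kept. Cells were thinned once to 1500 UMIs for shares across depths. The ratios were tested on simulated counts. Gene positions are from GENCODE vM21 and promoters from RefSeq on GRCm38.p6. Alternatives varied the rule, the minimum of UMIs, the pseudocount, the totals, centring, the weight of cells and depth.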

Additional observations from a re-analysis of the deposited data

Results flagged for a closer look

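Cells outside the DG also met the rule. In the SVZ, 8 of 2297 cells within the limits met it (6, 1 and 1 at 3, 14 and 24 months), or 0.348%. The comparisons above used only SVZ cells with Mki67 and no Eomes. Whether this share exceeds a background of stray Eomes UMIs was not tested. Among cells with Pdgfra, Eomes was in 0 of 30, 31 and 75 SVZ cells at the 3 ages and in 4 of 648 middle-aged DG cells. Their median depth was 8972 UMIs. Sox11 and Lhx2 were found in all 8, Igfbpl1 in 5, Top2a in 4, Mki67 in 3, Dlx1 in 3 and Neurog2 in 1, while Neurod1, Tbr1 and Dlx2 were at 0.

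In the OB, 19 of 1345 cells met it (7, 8 and 4 at the 3 ages), or 1.41%, which was not tested against a background either. Their median depth was 4293 UMIs. Their median mt- share was 7.02%, 5.43% and 5.67% at 3, 14 and 24 months, and up to 9.78%, near the limit of 10%. The adult DG cells had a median of 2.81%. The synaptic genes Snap25 and Syt1 were each found in 15 of the 19, the vesicular glutamate transporters Slc17a7 in 12 and Slc17a6 in 9, Reln in 8, Neurod1 in 6 and Tbr1 in 5. Mki67 was found in 1 and Sox11 in 1, and Top2a, Neurog2 and Igfbpl1 were at 0. The same counts of Eomes and Tubb3 thus picked cells with mature neuronal genes in the OB and cells with progenitor genes in the SVZ and DG.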

How the results depend on the processing

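Each region and age has 1 library. Regions of an age came from the same mice, and a fit over libraries with age as a block was not run. No library could be left out of a group of 1, and ratios between the cells of 14 and 3 months were not run, since 11 cells are under the minimum of 20. With at least 2 UMIs of Eomes, the adult share of 9.83% became 7.55% and the middle-aged share of 1.06% became 0.676%, with 7 cells in place of 11. Per 100 cells with Pdgfra, the adult value was 150. The other changes to the rule kept the adult share between 8.55% and 11.7% and the aged count at 0. Counts of genes at least 2-fold higher and lower moved with the minimum of UMIs and with thinning, which change how many genes are measured. Against Tubb3-high cells, 376 and 262 became 774 and 666 at a minimum of 20 UMIs, 93 and 55 at 200, and 86 and 58 with cells thinned to 1500 UMIs. Against Hopx cells, 814 and 435 became 1507 and 911, 274 and 91, and 222 and 114, and centring on the median, over the same 3237 genes, gave 536 higher and 592 lower. Against SVZ cells, 107 and 68 became 384 and 199, 17 and 6, and 6 and 4. Between cells with and without Mki67, 154 and 73 became 380 and 328, 33 and 8, and 20 and 11. Of the log2 ratios of single genes, 1 changed sign, that of Fen1 between cells with and without Mki67, from 1.25 to −0.081 after thinning, where the cause was not tested. Thinning moved 232 of 717 ratios beyond their counting interval and equal weight of cells 40. The alternative without the 2 cells rich in Apoe was chosen after seeing the data. It moved 17 ratios and reversed 0. Depth limits genes of low level, and the intervals hold no spread between mice.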
